A study of Mus musculus with 9 samples.

Results

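The cytosolic ribosomal proteins are the protein subunits of the ribosomes that translate nuclear messenger RNAs. Those analysed here were all genes whose symbol on the array is Rpl or Rps with a number, with at most 1 further letter a, x, l or y, together with the P-stalk proteins Rplp0 to Rplp2 and Rpsa. S6 kinases and pseudogenes were not included. A probe set was taken only where it carried a single symbol. The rule found 46 of the 18193 named genes, 24 of the large (60S) and 22 of the small (40S) subunit, with 100 probe sets, and each gene was represented by its brightest probe set. It used no difference between groups. A further 110 probe sets list such a symbol beside others. They were not assigned to a gene, and 28 symbols of the family, among them Rplp1, Rpl5 and Rpl26, occur only there. Rps27a and Rpl10l had no single-symbol probe set.

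Transcripts were measured on 9 Affymetrix mouse arrays, 3 for each of 3 groups of dendritic cells grown with the cytokine GM-CSF from 129/SvEv bone marrow for 9 to 12 days. STING knockout cells (STING KO) and wild-type cells (WT) received purified DNA from tumor cells, carried in with a lipid transfection reagent, for 7 h, and wild-type cells in media were the unstimulated group. STING is the adaptor that relays detection of DNA in the cytosol to type I interferon production. Media-only STING KO cells and a reagent-only group were not analysed here. Without the reagent-only group, an effect of DNA and one of the reagent cannot be told apart. Without media-only STING KO cells, a genotype difference present before DNA cannot be told from a changed response to DNA. The labels do not say whether the samples of a group came from separate mice or cultures, so the p-values rest on the spread among these arrays alone, and that spread may be technical.

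Ribosomal protein messenger RNAs are among the most abundant of a cell. In mammals they carry a run of pyrimidines right at the 5′ end, the TOP motif, through which mTORC1 and the RNA-binding protein LARP1 control their translation. The subunits are needed in equal numbers, and assembly factors and RNA polymerases I and III supply the rest of ribosome production. The comparisons ask whether these transcripts differ after tumor DNA, and whether they differ when STING is absent.

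The targeted gene, Sting1, read 245.8, 335.9 and 326.6 signal units in STING KO cells with tumor DNA, 2257.6, 1061 and 1158 in WT cells with tumor DNA and 1524.1, 1080.7 and 645.7 in WT media cells. It was lower in STING KO than in WT cells under DNA at -2.17 ± 0.35 on the log2 scale (SE, 3 arrays a group, limma adjusted p = 0.00163). Where its probes lie relative to the knockout allele was not analysed here, and probes outside the deleted stretch would check nothing. All arrays had been scaled by the authors to a trimmed mean of 499.8. Of 12 dendritic cell markers 11 lay above the filter on low signal. Markers of mast cells and basophils summed to 258.3 to 305.7 signal units in STING KO, 1312.9 to 3488.2 in WT with DNA and 370.9 to 1192.6 in WT media arrays. STING KO arrays also lay below WT DNA arrays without overlap in the sums for dendritic cells (84166.7 to 105247.4 against 106442.2 to 123466), macrophages (35013.1 to 49204.7 against 52619.6 to 67614.3), B cells (147.6 to 307.2 against 359.8 to 2280.2) and T and NK cells (133.8 to 145.8 against 188 to 251.6), while neutrophil and erythroid sums overlapped. Such sums weight the brightest markers most. Of 11 dendritic cell markers, limma gave adjusted p below 0.05 for Batf3 only, which was higher in STING KO under DNA at 1.16. At that limit 2 of 5 macrophage, 4 of 6 mast cell and basophil and 0 of 3 B cell markers were lower. Of 5 T and NK cell markers 1 lay above the filter, and it was lower. Among all genes 21.8% were higher and 9.73% lower there. The part of such cells in the results below was not tested.

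Most ribosomal protein probe sets lay at the top of the signal range. Of the 46 genes, 34 had a mean log2 signal above 13 (8192 signal units), and the family held 6 of the 20, 14 of the 50 and 24 of the 100 named genes with the highest mean signal. The 17 bright genes of the large subunit were Rpl4, Rpl6, Rpl7, Rpl7a, Rpl8, Rpl10a, Rpl11, Rpl13a, Rpl19, Rpl22, Rpl27, Rpl35, Rpl37a, Rpl38, Rpl41, Rplp0 and Rplp2. The 17 of the small subunit were Rps2, Rps3, Rps4x, Rps7, Rps9, Rps10, Rps14, Rps15, Rps18, Rps19, Rps20, Rps24, Rps26, Rps27l, Rps28, Rps29 and Rpsa. Another 10 genes passed the filter at lower signal, namely Rpl12, Rpl14, Rpl27a, Rpl37, Rpl39, Rpl39l, Rps4l, Rps6, Rps25 and Rps27. Rpl3l, which in mammals is a paralog used in striated muscle, read 4.9 to 25.1 on the 9 arrays, and the only single-symbol probe set of Rps16 read 1.4 to 48.1, so neither was tested. Signals of different probe sets depend on their probes and do not rank the transcripts. Of the 34 bright probe sets, 14 carry the suffix _x_at and 2 the suffix _s_at, which mark probes that may also match transcripts of other genes, so for these signal from a paralog or pseudogene cannot be separated from the named gene. Another 14 carry _a_at, which marks alternative transcripts of the same gene.

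**Figure D1:**
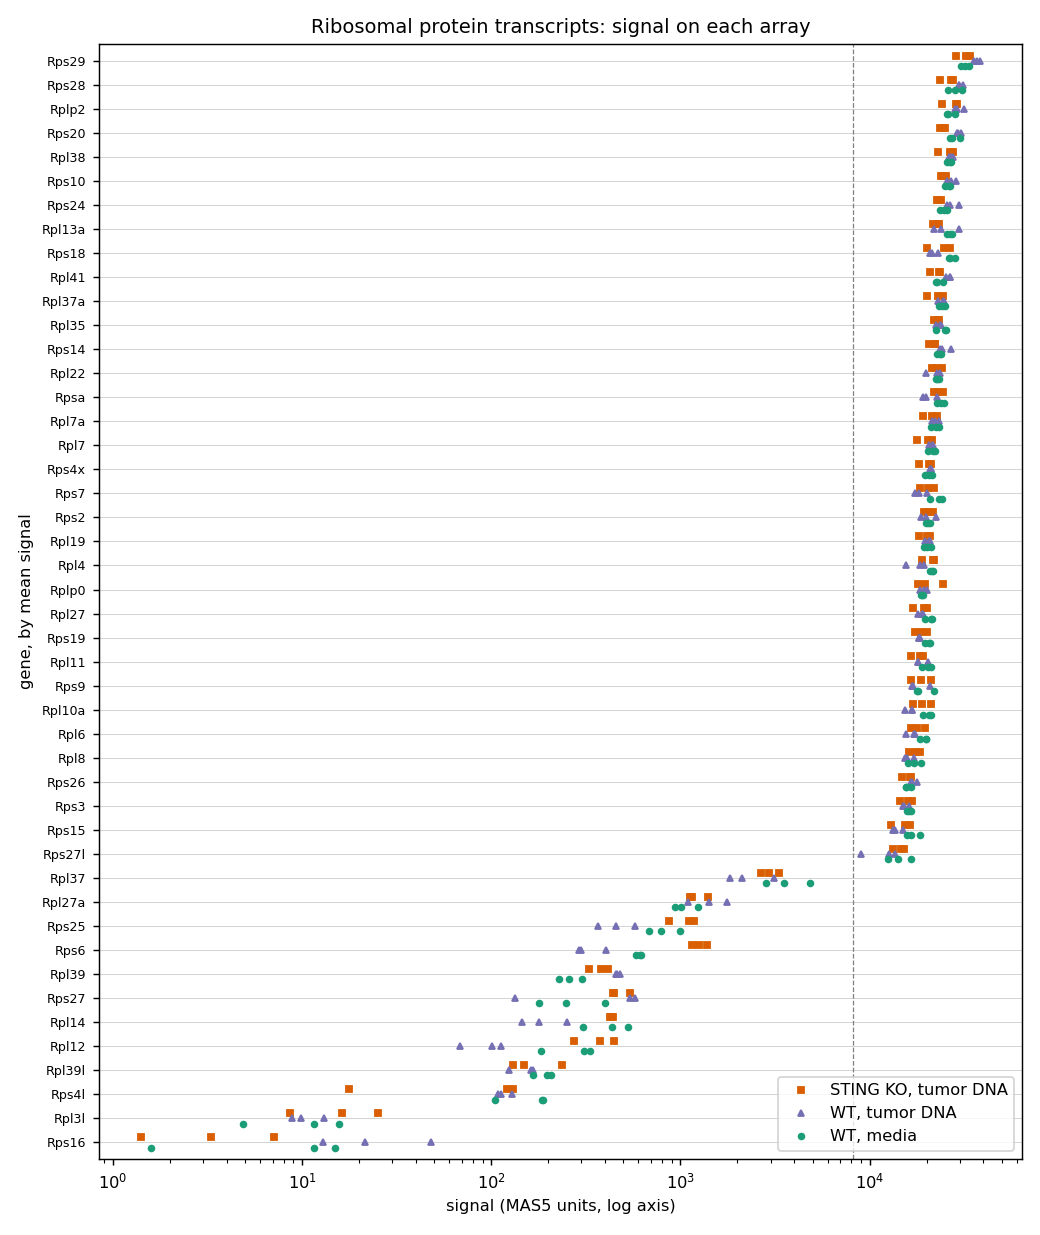
Signal of each ribosomal protein gene (rows, by mean signal) on each of the 9 arrays, in MAS5 units on a log axis, with squares for STING KO cells with tumor DNA, triangles for WT cells with tumor DNA and circles for WT cells in media. The dashed line marks 8192 units, above which 34 genes lie, and the 10 genes between it and the 2 lowest spread over a wide range of signal.

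Rps29, a small zinc-binding protein of the small subunit, had the highest member signal on every array. It read 33938.4, 28521.1 and 32261.2 in STING KO cells with tumor DNA, 38545.4, 37092.4 and 35729.4 in WT cells with tumor DNA and 33510.1, 30547.9 and 32075.4 in WT media cells. The WT DNA arrays lay above all 6 others, yet the log2 difference of 0.21 ± 0.09 from media did not pass the test (SE, 3 arrays a group, limma adjusted p = 0.103). A second Rps29 probe set, at a mean log2 of 14.858, gave 0.28 ± 0.09 and was called higher (limma adjusted p = 0.0487 over all probe sets). The third gave 0.21 ± 0.09 and was not called (adjusted p = 0.119). Whether the brightest probe sets were near saturation was not tested.

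The brightest probe sets of the 46 genes together made up 2.176%, 1.961% and 2.087% of all signal on the STING KO arrays, 1.941%, 2.017% and 2.005% on the WT DNA arrays and 2.22%, 2.127% and 2.192% on the WT media arrays. The media arrays lay above the WT DNA arrays without overlap, and the STING KO arrays overlapped with both. This share depends on the signal of all other probe sets and was not tested. In bulk samples fewer cells of a type and less RNA per cell cannot be told apart.

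In WT cells, tumor DNA went with few and mostly small differences in these transcripts. Rpl10a, Rpl12, Rpl14, Rps25 and Rps6 fell and Rpl39 rose, that is 5 lower and 1 higher of 44 tested, where 33.6% of all 12586 genes were called, 23.6% lower and 9.94% higher. A gene was called at a limma adjusted p below 0.05 over all genes tested. The median log2 difference was -0.063 for the 44 members and -0.197 for all genes. With the replicate number of the titles as a block, 9 members were called lower and 1 higher, where that fit called 31.6% of all genes lower and 13.2% higher. The 3 values of one group lay wholly apart for 17 members, 4 above and 13 below media, against 46.4% of all genes, 15% above and 31.4% below.

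The bright members lay near 0. Of the 34, 0 were called higher and 1 lower, Rpl10a, with differences from -0.317 to 0.212 and a median of -0.032. At an unadjusted p below 0.05 limma gave 1 higher and 4 lower. The 95% interval lay within 0.5 log2 units of 0 for 28 of them, and over all 34 the intervals reached from -0.672 to 0.418. Of the 465 other genes of the same signal range, 129 were called higher and 36 lower, 27.7% and 7.74% (35.5% in either direction), with a median of 0.136. They were not matched to the members within that range. All other probe sets had a median of 0.091 at log2 13 to 14 and 0.226 at log2 14 to 15. The large and small subunits had similar medians among bright members, -0.051 and -0.013.

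Rpl10a encodes a protein of the large subunit. It read 16801.3, 16717.5 and 15343.2 in WT cells with tumor DNA, against 21117.2, 20539.6 and 19115.7 in media, and the groups did not overlap. The difference was -0.31 ± 0.11 (SE, 3 arrays a group, limma adjusted p = 0.0433). The difference was -0.01 with median centring (adjusted p = 0.959). The call also ended without the filter, with the mean of probe sets, without the intensity trend and with only the 2 groups compared, and when any 1 of the 6 WT arrays, STING KO array 3 or any replicate number was left out (adjusted p up to 0.2).

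At their brightest probe sets and with the authors' scaling, the following subunits and paralogs did not pass the test with DNA in WT. Some of them have known roles outside the ribosome. Rplp0 and Rplp2, of the stalk that recruits elongation factors, differed by 0.03 ± 0.12 (SE, limma adjusted p = 0.867) and 0.15 ± 0.10 (adjusted p = 0.273). Rpsa, also known as a laminin receptor, differed by -0.21 ± 0.10 (adjusted p = 0.121), and Rps19, mutated in human Diamond-Blackfan anaemia, by -0.15 ± 0.09 (adjusted p = 0.22). Rpl11, which binds the p53 regulator MDM2, differed by -0.09 ± 0.10 (adjusted p = 0.515), and Rpl13a, which silences inflammatory transcripts in human monocytic cells, by -0.09 ± 0.12 (adjusted p = 0.596). Rps3, which also binds NF-kappaB, differed by -0.07 ± 0.09 (adjusted p = 0.633), and Rpl22, known for its part in lymphocyte development, by -0.05 ± 0.10 (adjusted p = 0.721). Among the paralogs, the p53 target Rps27l differed by -0.30 ± 0.17 (adjusted p = 0.203), Rpl39l by -0.31 ± 0.25 (adjusted p = 0.361) and Rps4l by -0.37 ± 0.50 (adjusted p = 0.617). Quantile normalization called Rpsa, Rps3, Rps19, Rpl11 and Rps27l lower, and median centring called Rplp2 higher. In a fit with a row for each probe set, other probe sets of Rps3, Rpl22 and Rpl13a were called lower.

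**Figure D2:**
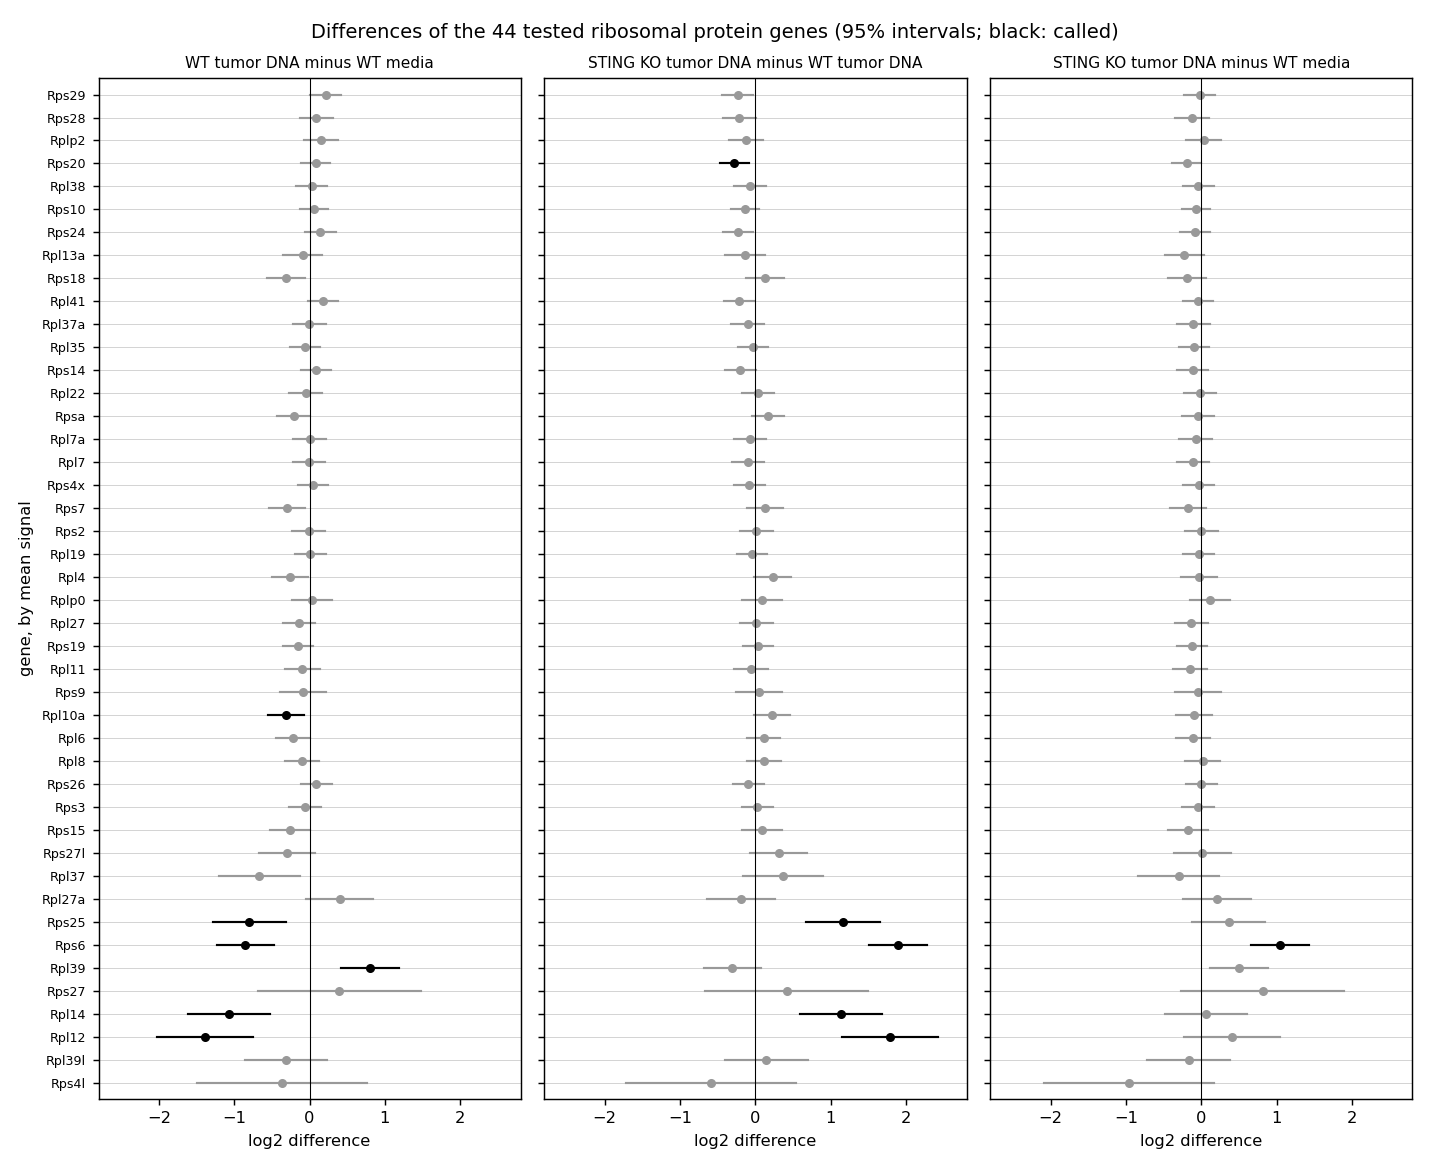
Log2 differences of the 44 tested ribosomal protein genes, with 95% intervals, in the 3 comparisons, with genes ordered by mean signal from the top and called genes in black. Bright genes cluster near 0 in each panel, and most of the called genes stand among the 10 dimmer genes at the bottom.

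The direction of the bright members depended on how the arrays were scaled. Against media the median of the 34 in WT cells with DNA was -0.032 with the authors' scaling, -0.245 with quantile normalization and 0.27 with centring of each array on its median. Quantile normalization put 34 of 34 below 0 and called 15 lower, and median centring put 32 of 34 above 0 and called 7 higher. The median of all genes itself was -0.197, -0.098 and 0.106 under the 3 scalings, and all genes split into 1251 higher and 2973 lower, 1371 and 2207, and 2038 and 1451. Relative to the median of all genes the bright members lay above it with the authors' scaling and below it with quantile normalization. Median centring shifts all genes of an array by 1 value, so it could not change that position from the authors' scaling. Against the median of 0.136 of the 465 other genes of that signal, the bright members lay lower with the authors' scaling. No direction is given for the bright members as a group.

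Rps6, Rpl12, Rpl14 and Rps25 were lower with DNA in WT cells and higher in STING KO than in WT cells under DNA. Both comparisons share the WT DNA arrays, so a deviation of those arrays moves them in opposite directions. All 4 are dimmer probe sets, with group means below 1300 signal units, and no detection calls were used here.

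Rps6, the small-subunit protein phosphorylated by S6 kinases downstream of mTORC1, read 1154.3, 1379.1 and 1252.8 in STING KO cells with tumor DNA, 289.8, 405.5 and 299 in WT cells with tumor DNA and 579.5, 620.4 and 611.1 in WT media cells. The 3 groups did not overlap, with STING KO highest and WT with DNA lowest. The means were 1262.1 ± 112.7, 331.4 ± 64.3 and 603.6 ± 21.4 (SD, n = 3 each). STING KO exceeded WT under DNA by 1.89 ± 0.17 log2 units (SE, limma adjusted p = 0.00012), a call kept in every alternative and every fit without an array or a replicate number. WT cells with DNA were below media by -0.85 ± 0.17 (adjusted p = 0.005), a call that ended without the arrays numbered 3 (adjusted p = 0.0923).

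Rps6 was the member called between STING KO cells with DNA and WT media cells, at 1.04 ± 0.17 (SE, 3 arrays a group, limma adjusted p = 0.0333). Its alternatives gave adjusted p from 0.009739 to 0.04999, and 9 of the 12 fits without an array or a number ended the call (up to 0.834). A second Rps6 probe set, below the filter and so not tested, read 48.1, 66.3 and 69.7 in STING KO, 2.2, 4.8 and 5.4 in WT with DNA and 17.2, 20.1 and 4.6 in WT media arrays. Its STING KO arrays also lay above the 6 WT arrays.

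Rpl12, at the base of the large subunit's stalk, read 272.9, 374.3 and 446.5 in STING KO cells with tumor DNA, 68.1, 112.9 and 101.5 in WT cells with tumor DNA and 183.8, 310.2 and 331.1 in WT media cells. The WT DNA arrays lay below all others, while STING KO and media overlapped. The difference was 1.79 ± 0.29 for STING KO against WT under DNA (SE, 3 arrays a group, limma adjusted p = 0.00156) and -1.38 ± 0.29 for DNA against media in WT (adjusted p = 0.00557, and 0.0717 without the arrays numbered 3).

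Rpl14, a large-subunit protein, read 427, 437.9 and 429.4 in STING KO cells with tumor DNA, 146.3, 252.4 and 179 in WT cells with tumor DNA and 304.5, 526.5 and 435.1 in WT media cells. Again the WT DNA arrays were the 3 lowest, and the STING KO values lay inside the media range. The differences were 1.13 ± 0.25 for STING KO against WT under DNA (SE, 3 arrays a group, limma adjusted p = 0.00665) and -1.07 ± 0.25 for DNA against media (adjusted p = 0.00883). Both calls ended without the arrays numbered 3, at adjusted p of 0.101 and 0.12.

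Rps25, a small-subunit protein that several viral RNAs need for translation from internal entry sites, read 874.7, 1173 and 1115.1 in STING KO cells with tumor DNA, 365.9, 576.2 and 457.5 in WT cells with tumor DNA and 679.1, 990.4 and 790.6 in WT media cells. The WT DNA arrays were the lowest, and STING KO and media overlapped. The differences were 1.16 ± 0.22 for STING KO against WT under DNA (SE, 3 arrays a group, limma adjusted p = 0.00332, and 0.0776 without the arrays numbered 3) and -0.80 ± 0.22 for DNA against media (adjusted p = 0.0189). The second call ended with quantile normalization or median centring (up to 0.086), without WT DNA array 1 or media array 2, and without the arrays numbered 2 or 3 (up to 0.145).

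Rpl39, a very small protein beside the exit tunnel of the large subunit, had the opposite pattern. It read 329.6, 382 and 415.1 in STING KO cells with tumor DNA, 461.5, 458.7 and 477.4 in WT cells with tumor DNA and 300.5, 228.1 and 256.5 in WT media cells. The groups did not overlap, with WT with DNA highest and media lowest. DNA against media in WT gave 0.80 ± 0.17 (SE, 3 arrays a group, limma adjusted p = 0.00651), which ended without the arrays numbered 2 or 3 (up to 0.0905). STING KO differed from WT under DNA by -0.31 ± 0.17 (adjusted p = 0.206).

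**Figure D3:**
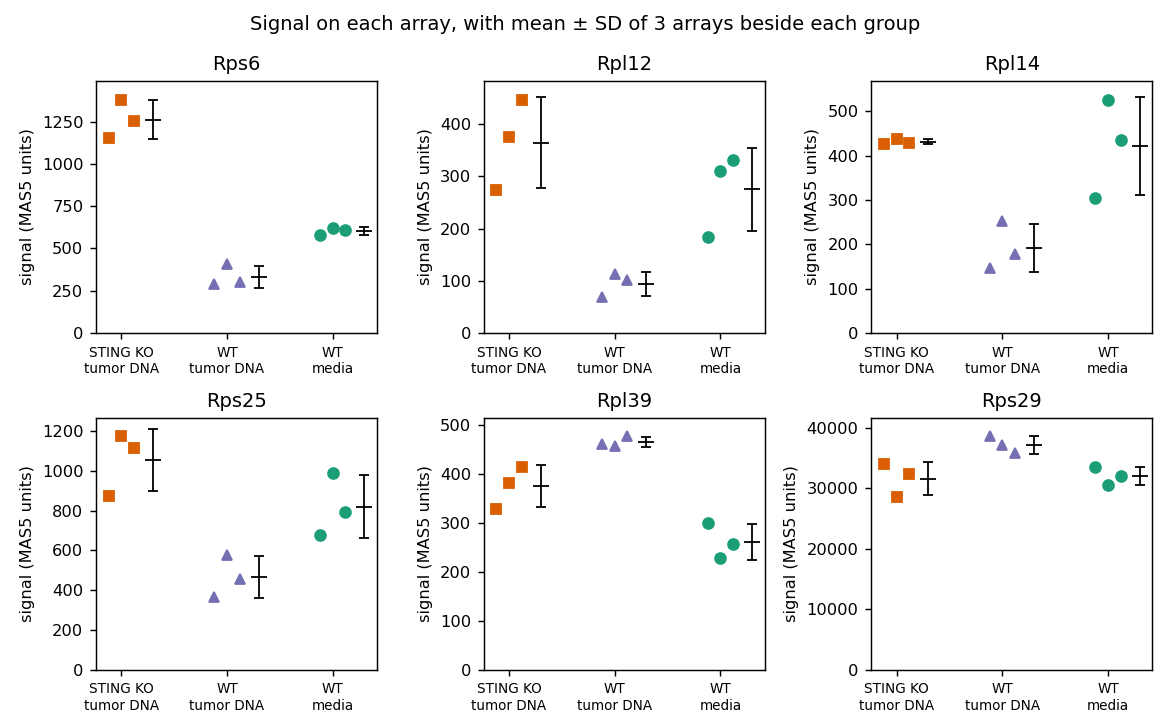
Signal in MAS5 units on each array (symbols) of Rps6, Rpl12, Rpl14, Rps25, Rpl39 and, for scale, the bright Rps29, with the mean ± SD of the 3 arrays beside each group and each axis starting at 0. For the first 4 genes the WT DNA arrays are the 3 lowest, and for Rpl39 and Rps29 the 3 highest.

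The start regions of the 4 genes that were lower with DNA in WT and higher in STING KO are shown because they moved together, beside 2 bright genes, Rplp2 and Rpl38, that did not pass the test in any comparison. Each is 40 bases of RefSeq promoter sequence on GRCm38.p6, 20 before the annotated start and 20 from it on, written 5′ to 3′ on the gene's strand, with the run of at least 5 C or T that holds the start or lies nearest to it in capitals.
Rps6, chr4:86857348-86857387 (-): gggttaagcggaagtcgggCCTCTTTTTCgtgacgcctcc
Rpl12, chr2:32961692-32961731 (+): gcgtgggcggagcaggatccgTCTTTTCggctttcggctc
Rpl14, chr9:120571497-120571536 (+): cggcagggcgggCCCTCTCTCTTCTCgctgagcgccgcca
Rps25, chr9:44407694-44407733 (+): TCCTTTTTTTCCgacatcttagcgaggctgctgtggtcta
Rplp2, chr7:141447631-141447670 (+): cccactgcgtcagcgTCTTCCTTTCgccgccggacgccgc
Rpl38, chr11:114668560-114668599 (+): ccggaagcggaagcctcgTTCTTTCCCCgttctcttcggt
In Rps6, Rpl14, Rplp2 and Rpl38 the pyrimidine run covers the annotated start, in Rpl12 it begins 1 base after it, and in Rps25 it lies upstream. Of the bright genes, Rpl41, Rps28, Rps3 and Rps4x have no such run in these 40 bases.

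RefSeq promoter windows were found for 40 of the 46 members, with 48 annotated starts. A C at the start followed by at least 4 bases that are each C or T was present at 8 member starts, 16.7%, against 2.51% of all 32851 starts of 27025 genes. A C followed by at least 6 such bases, beginning within 10 bases of the start, was present at 20, 41.7%, against 12.2% of all starts. CGGAAG, the core bound by ETS-family factors such as GABP, was found on either strand within the 300 bases of 30 member windows, 62.5%, against 16.9% of all. These matches describe the sequence and were not tied to the measured differences.

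Under tumor DNA, STING KO cells had 4 members higher than WT cells, Rps6, Rpl12, Rps25 and Rpl14, and 1 lower, Rps20, of 44 tested. Over all genes 31.5% were called, 21.8% higher and 9.73% lower. The median log2 difference was 0.01 for the members and 0.197 for all genes. With the replicate block 2 members were called lower and 6 higher, where that fit called 13% of all genes lower and 29.9% higher. The groups lay wholly apart for 13 members, 5 above and 8 below WT, against 46% of all genes, 31.3% above and 14.7% below.

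The 34 bright members again lay close to 0, with 0 called higher and 1 lower, a median of -0.04 and a range of -0.282 to 0.308. At an unadjusted p below 0.05 limma gave 0 higher and 4 lower. The 95% interval was within 0.5 log2 units of 0 for 33 of 34. Among the 465 other genes of that signal range 33 were called higher and 100 lower, 7.1% and 21.5% (28.6% in either direction). All other probe sets had a median of -0.043 at log2 13 to 14 and -0.233 at log2 14 to 15. The direction turned with the scaling here too: the bright median was 0.203 with quantile normalization, with 13 called higher, and -0.3 with median centring, with 7 called lower. The median of all genes was 0.104 and -0.062 there, and their calls split into 2746 higher and 1224 lower with the authors' scaling, 2140 and 1361 with quantile normalization and 1456 and 1805 with median centring.

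Rps20, a protein of the small subunit's head, read 24452.4, 23497.1 and 25135.8 in STING KO cells with tumor DNA and 29262.5, 30586.9 and 28986.1 in WT cells with tumor DNA. The groups did not overlap, and the media arrays, at 27222.4, 26499.5 and 30161.6, overlapped with the WT DNA arrays. The difference from WT under DNA was -0.28 ± 0.09 (SE, 3 arrays a group, limma adjusted p = 0.0325). The call ended with quantile normalization, without the filter, without the intensity trend, with only the 2 groups and in 9 fits without an array or a number (up to 0.19). A second bright Rps20 probe set differed by -0.30, and 2 dim ones, with group means of 36.3 to 91 signal units, by 0.47 and 0.69.

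Between STING KO cells with tumor DNA and WT media cells, 1 member was called higher, Rps6, and 0 lower, where 0.429% of all genes were called, 0.167% higher and 0.262% lower (21 and 33 genes, and 86 and 90 with the replicate block). The groups lay wholly apart for 6 members, 3 above and 3 below media, against 13.8% of all genes, 5.93% above and 7.88% below. At an unadjusted p below 0.05, 2 members were higher and 1 lower. In this comparison limma gave 1 of 34 bright members a 95% interval without 0. The bright differences ran from -0.228 to 0.114 with a median of -0.076, 30 of 34 were below 0, and every interval lay within 0.5 log2 units of 0. The bright median was -0.022, -0.13 and -0.063 in the arrays numbered 1, 2 and 3. Genotype and treatment both differ here and cannot be told apart.

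Probe sets of the same gene disagreed, with a dependence on signal that other probe sets also had. Over all other probe sets, the median difference for DNA against media was -0.4 at log2 8 to 9 and 0.226 at log2 14 to 15, and for STING KO against WT under DNA it was 0.363 and -0.233. At log2 6 to 7 these medians were -0.05 and 0.036, so the dependence was not steady as signal fell. The probe set with the lowest signal among those that passed was compared with the brightest for the 19 genes with at least 2. For DNA against media in WT, the brightest had a median of -0.051 with 0 called, and the dimmest a median of -0.37 with 7 called, and the dimmest was the more negative in 14 of 19 genes. For STING KO against WT under DNA the medians were -0.102 with 1 called and 0.309 with 6 called. These counts come from a fit with a row for each probe set, chosen after the data were seen. In it, 18.4% of all 27022 probe sets were called lower and 8.54% higher with DNA, 16.8% higher and 8.35% lower in STING KO against WT under DNA, and 0.189% higher and 0.192% lower in STING KO with DNA against WT media. In that fit 15.3% of all other probe sets from the filter to log2 10 were called higher in STING KO and 17.3% lower with DNA, against 47.6% each of 21 member probe sets.

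Rps3 is an example. Its bright probe set read 16730.1, 14505.4 and 16052.7 in STING KO cells with tumor DNA, 15088.7, 15148 and 16150.8 in WT cells with tumor DNA and 16649.4, 15681.3 and 16208.5 in WT media cells, which overlap. A second probe set with a plain suffix read 857.9, 714.9 and 770.2 in STING KO, 136.2, 239.4 and 152.8 in WT with DNA and 644.8, 775.5 and 617 in WT media arrays. There the WT DNA arrays lay far below the rest, with differences of 2.09 ± 0.22 for STING KO against WT under DNA (SE, limma adjusted p = 0.000204 over all probe sets) and -1.89 ± 0.22 for DNA against media (adjusted p = 0.000464).

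Rpl22, Rpl41, Rps9, Rpl37a and Rpl13a had the same kind of split between their brightest and dimmest probe sets. The third Rpl22 probe set read 360.9 to 689.2 in STING KO, 141.7 to 173.7 in WT with DNA and 376.5 to 618.6 in WT media arrays, a difference of -1.60 for DNA against media, where the brightest gave -0.05. Its second, also bright at a mean log2 of 13.754, gave -0.36 (limma adjusted p = 0.0419 over all probe sets). In STING KO against WT under DNA that second one gave 0.36 (limma adjusted p = 0.0443). The 2 dim Rpl41 probe sets gave -1.74 and -1.49, where the 2 bright ones gave 0.18 and 0.16. The dimmest of 3 Rps9 probe sets gave -1.88 and the dimmest of 3 Rpl37a probe sets -1.18, where the brightest gave -0.09 and 0.00. Rpl13a, with 4 probe sets, gave -0.09, -0.11, -0.62 and -1.12 in order of falling signal. Which transcripts the dim probe sets detect was not tested, because no probe sequences were used here.

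**Figure D4:**
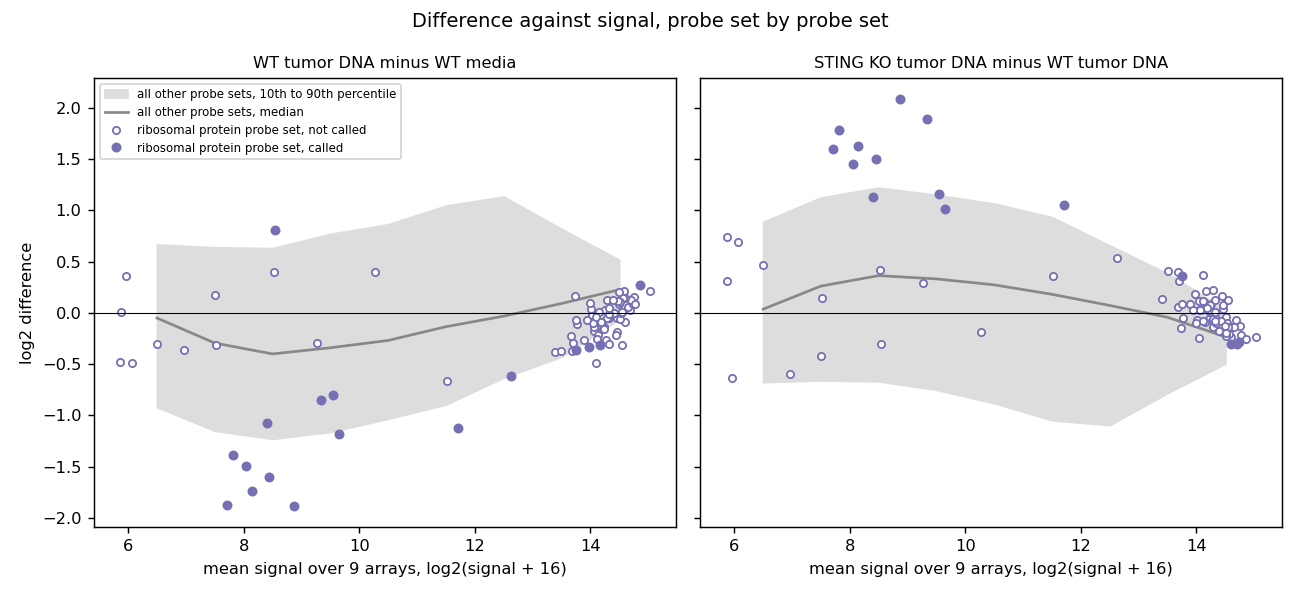
Log2 difference against mean signal for the 90 ribosomal protein probe sets that passed the filter (circles, filled where called), for WT tumor DNA against media and for STING KO against WT under DNA, over the 10th to 90th percentile (grey band) and median (line) of all other probe sets. Member probe sets above log2 13 lie near 0, and several between log2 7 and 10 lie beyond the grey band. With DNA, the brightest probe sets of Rpl4, Rpl6, Rpl8, Rpl10a, Rpl11, Rpl13a and Rpl27 at log2 14 to 15 lie below the band. So do those of Rps7, Rps9, Rps18 (-0.317), Rps19 and Rpsa. In STING KO, those of Rpl4, Rpl6, Rpl8, Rpl10a, Rplp0, Rps7, Rps9, Rps18 and Rpsa (0.168) lie above it. The highest member difference above log2 13 was 0.276 with DNA, and the lowest was -0.301 in STING KO. At log2 14 to 15 the band runs from -0.062 to 0.517 with DNA and from -0.495 to 0.035 in STING KO.

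Multi-symbol probe sets of the family were also examined. The 78 above log2 13 had a median of -0.057 for DNA against media, with 0 called higher and 6 lower (7.69%). Of all other probe sets there, 26% were higher and 6.81% lower. The 20 between the filter and log2 10 had a median of -0.459, with 1 higher and 6 lower, against 5.9% and 17.3% of all others. In STING KO against WT under DNA, 1 of the 78 was higher and 0 lower, against 5.53% and 20.1%. There 6 of the 20 were higher and 2 lower, against 15.3% and 6.08%. The other ribosomal proteins outside the symbol rule followed the bright members for Fau, which encodes the small-subunit protein eS30 with a ubiquitin-like part, and for Rps3a1, at -0.00 ± 0.11 (SE, limma adjusted p = 0.986) and -0.08 ± 0.09 (adjusted p = 0.498) with DNA in WT. The paralog Rpl22l1 gave -0.31 ± 0.22 (adjusted p = 0.3). Rpl7l1, a paralog of Rpl7, read 2564.2, 2725.8 and 2594 in STING KO, 1114.6, 1300.4 and 1224.1 in WT with DNA and 2251.3, 2525.5 and 2364.9 in WT media arrays. It fell with DNA by -0.97 ± 0.13 (adjusted p = 0.000815) and was higher in STING KO under DNA by 1.11 ± 0.13 (adjusted p = 0.000354).

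Genes that build ribosomes were called in larger shares than the ribosomal proteins, a contrast between lists that was not tested. Most ribosomal proteins lay above log2 13, where all other probe sets had a median of 0.138 with DNA in WT. At log2 10 to 13 that median was -0.173. With DNA in WT 23.6% of all genes were called lower and 9.94% higher. In STING KO under DNA 21.8% of all genes were higher and 9.73% lower. Of 51 ribosome assembly factors tested, 39 fell and 1 rose with DNA in WT cells, with a median log2 difference of -1.07, and 42 were higher and 0 lower in STING KO than in WT under DNA, with a median of 1.46. The medians kept these signs under quantile normalization (-0.948 and 1.31) and median centring (-0.771 and 1.2). In STING KO with DNA against WT media limma called 0 of the 51, with 2 higher and 0 lower at an unadjusted p below 0.05 and a median of 0.186, and it called 0 members of every other list described below in that comparison, where 0.429% of all genes were called.

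Ddx21, an RNA helicase of the nucleolus, read 1481.6, 1637.6 and 1495.1 in STING KO cells with tumor DNA, 281.4, 355.7 and 336.2 in WT cells with tumor DNA and 1262.2, 1348.2 and 1388.8 in WT media cells. The WT DNA arrays lay far below the other 6. Its differences were 2.20 ± 0.15 for STING KO against WT under DNA (SE, 3 arrays a group, limma adjusted p = 3.59e-05) and -1.99 ± 0.15 for DNA against media (adjusted p = 9.19e-05). Wdr12, of the PeBoW complex that matures the large subunit, differed by 2.20 ± 0.21 and -2.21 ± 0.21, the nucleolar GTPase Gnl3 by 2.17 ± 0.18 and -1.83 ± 0.18, and Imp3, of the small-subunit processome, by 1.54 ± 0.14 and -1.60 ± 0.14 in these comparisons.

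The machinery of RNA polymerases I and III, which make ribosomal and transfer RNAs, was called in these directions too. Of 26 genes, 12 fell and 0 rose with DNA in WT (median -0.547), where 23.6% of all genes fell. In STING KO under DNA 16 were higher and 0 lower (median 0.682), where 21.8% of all genes were higher. Gtf3a, the factor that starts 5S RNA transcription, differed by 1.14 ± 0.18 in STING KO against WT under DNA and by -1.23 ± 0.18 with DNA in WT. Taf1d, of the polymerase I selectivity factor, differed by 0.94 ± 0.19 and -1.12 ± 0.19, and the polymerase I subunit gene Twistnb by 0.92 ± 0.15 and -0.87 ± 0.15. Polr3e, a polymerase III subunit, differed by 1.55 ± 0.17 and -1.29 ± 0.17, but its plain-suffix probe set gave -0.06 (limma adjusted p = 0.931) and -0.41 (adjusted p = 0.471).

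Translation factors were next. Of 35 initiation factors, 15 fell and 0 rose with DNA in WT (median -0.376), and 8 were higher and 1 lower in STING KO under DNA (median 0.293), the 8 being a share close to the 21.8% of all genes called higher there. With median centring 6 fell and 3 rose with DNA, and 7 were higher and 2 lower in STING KO. Eif2b4, of the exchange factor for eIF2, differed by 1.10 ± 0.16 for STING KO against WT under DNA and by -0.99 ± 0.16 for DNA against media, Eif3b by 1.03 ± 0.18 and -0.82 ± 0.18, Eif3d by 0.84 ± 0.14 and -0.67 ± 0.14, and Eif4b by 1.37 ± 0.30 and -1.55 ± 0.30. The helicase gene Eif4a2 fell by a difference of -0.59 ± 0.11 with DNA, a call that ended with median centring (limma adjusted p = 0.105) and without the arrays numbered 2 (0.0524), and differed by 0.25 ± 0.11 in STING KO (adjusted p = 0.114). Of 10 elongation and termination genes, 4 fell with DNA, where 23.6% of all genes did, and 4 were higher in STING KO, where 21.8% of all genes were. With median centring 3 fell and 3 rose with DNA, and 2 were higher and 2 lower in STING KO. With median centring the medians of the initiation factors were -0.073 and 0.033, and those of the elongation and termination genes -0.099 and -0.009.

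Other transcripts with a TOP motif were examined beside the ribosomal proteins. Of 18, 9 fell and 1 rose with DNA in WT, where 23.6% of all genes fell (list median -0.401, and -0.098 with median centring). In STING KO under DNA 7 were higher, where 21.8% of all genes were (list median 0.275, and 0.015 with median centring). With median centring 3 fell and 3 rose with DNA, and 3 were higher and 3 lower in STING KO. Gas5, a noncoding RNA that hosts small nucleolar RNAs, read 3402.8, 2436.1 and 2652.1 in STING KO, 1037, 1140.4 and 805.1 in WT with DNA and 4763, 3307.7 and 2874.6 in WT media arrays. It differed by 1.49 ± 0.22 for STING KO against WT under DNA (SE, 3 arrays a group, limma adjusted p = 0.00111) and by -1.84 ± 0.22 for DNA against media (adjusted p = 0.000571). The elongation factor gene Eef1d differed by 0.84 ± 0.15 and -0.98 ± 0.15 in these comparisons, its STING KO call ending without the arrays numbered 3 (adjusted p = 0.0624), and Naca, of the nascent chain complex, by 0.62 ± 0.13 and -0.70 ± 0.13, both calls ending with median centring (0.087 and 0.0637) and that in STING KO also without the arrays numbered 2 (0.0633). Eef2, the translocase, differed by 0.43 ± 0.13 and -0.58 ± 0.13, and both calls ended with median centring (adjusted p = 0.409 and 0.177), without the arrays numbered 1 or 2 and, in STING KO, in further fits (up to 0.196 without arrays).

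Upstream regulators of ribosomal protein translation moved in both directions. Of 20 genes of mTORC1, LARP1 and MYC signalling, 9 fell and 3 rose with DNA in WT, where 23.6% of all genes fell. In STING KO under DNA 9 were higher and 3 lower, where 21.8% of all genes were higher. These counts turned with the scaling: with DNA in WT, 5 fell and 4 rose with quantile normalization and 3 fell and 5 rose with median centring, and in STING KO under DNA 6 were higher and 3 lower, and 5 higher and 3 lower. Larp1, which represses TOP transcripts, read 2395.8, 2212.3 and 2328.9 in STING KO, 4243, 3030.3 and 3293.7 in WT with DNA and 1908, 2025 and 2301.6 in WT media arrays. The WT DNA arrays were the highest, by -0.59 ± 0.15 for STING KO against WT under DNA (SE, limma adjusted p = 0.0164) and by 0.75 ± 0.15 for DNA against media (adjusted p = 0.00567). The first call ended without STING KO array 2 or 3 or the arrays numbered 2 or 3 (up to 0.113), and the second without the arrays numbered 3 (0.0551).

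Mxd1, a MYC antagonist, read 487.4, 244.4 and 275.2 in STING KO, 8944.8, 4551.4 and 6855.1 in WT with DNA and 680.5, 265.5 and 369.9 in WT media arrays. It was lower in STING KO than in WT under DNA by -4.28 ± 0.38 and rose with DNA in WT by 3.95 ± 0.38 (SE, limma adjusted p = 0.000105 and 0.000244). Deptor, an inhibitor inside mTOR complexes, differed the other way, by 2.08 ± 0.27 and -2.52 ± 0.27, as did Larp4 by 1.49 ± 0.15 and -1.24 ± 0.15. Myc was higher in STING KO under DNA by 1.22 ± 0.34 (adjusted p = 0.0224), a call that ended with quantile normalization or median centring (up to 0.0592) and in 6 fits without arrays (up to 0.2), and differed by -0.76 ± 0.34 with DNA in WT (adjusted p = 0.117, and 0.00492 with the replicate block, which makes it a call). Mtor, at 0.15 ± 0.19 and -0.04 ± 0.19, and Eif4ebp1, at 0.49 ± 0.39 and -0.58 ± 0.39, did not pass the test (adjusted p = 0.576, 0.905, 0.376 and 0.284). With the replicate block the Eif4ebp1 difference with DNA in WT was called (adjusted p = 0.0279).

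Of 9 ribosome rescue and quality control genes, 4 fell and 1 rose with DNA in WT, where 23.6% of all genes fell. In STING KO under DNA 4 were higher and 1 lower, where 21.8% of all genes were higher. Ascc3, a helicase that splits collided ribosomes, differed by -1.77 ± 0.19 for STING KO against WT under DNA and by 1.67 ± 0.19 for DNA against media. Abce1, which recycles ribosomes, differed by 1.81 ± 0.28 and -1.67 ± 0.28, and Nemf, which marks stalled chains, by 0.96 ± 0.13 and -0.78 ± 0.13 (its second call ended without the arrays numbered 3, limma adjusted p = 0.0585). Of 13 proliferation genes, DNA in WT went with 1 higher, Pcna, and 1 lower, Mcm3, and limma called 0 in STING KO against WT (2 higher and 1 lower at an unadjusted p below 0.05), with medians of -0.751 and 0.947. The Pcna call ended with quantile normalization and without media array 1, WT DNA array 1 or the arrays numbered 1 or 3 (adjusted p up to 0.138). The Mcm3 call ended with quantile normalization, median centring and the mean of probe sets and in 6 fits without an array or a number (up to 0.139).

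The mitochondrial ribosomal proteins, encoded in the nucleus for the organelle's own ribosome, differed from the cytosolic set in their counts. Of 76, 47 fell and 1 rose with DNA in WT (median -0.686), where 23.6% of all genes fell. In STING KO under DNA 48 were higher and 2 lower (median 0.695), where 21.8% of all genes were higher. Mrpl12 read 2304.5, 2777.3 and 2592.1 in STING KO, 551.9, 752.9 and 750.8 in WT with DNA and 1879, 2415.4 and 2215.7 in WT media arrays, and Mrps18b differed by 2.61 ± 0.28 for STING KO against WT under DNA and by -2.22 ± 0.28 for DNA against media. These probe sets have lower signals than most cytosolic ones, and the difference between the 2 families was not tested.

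**Figure D5:**
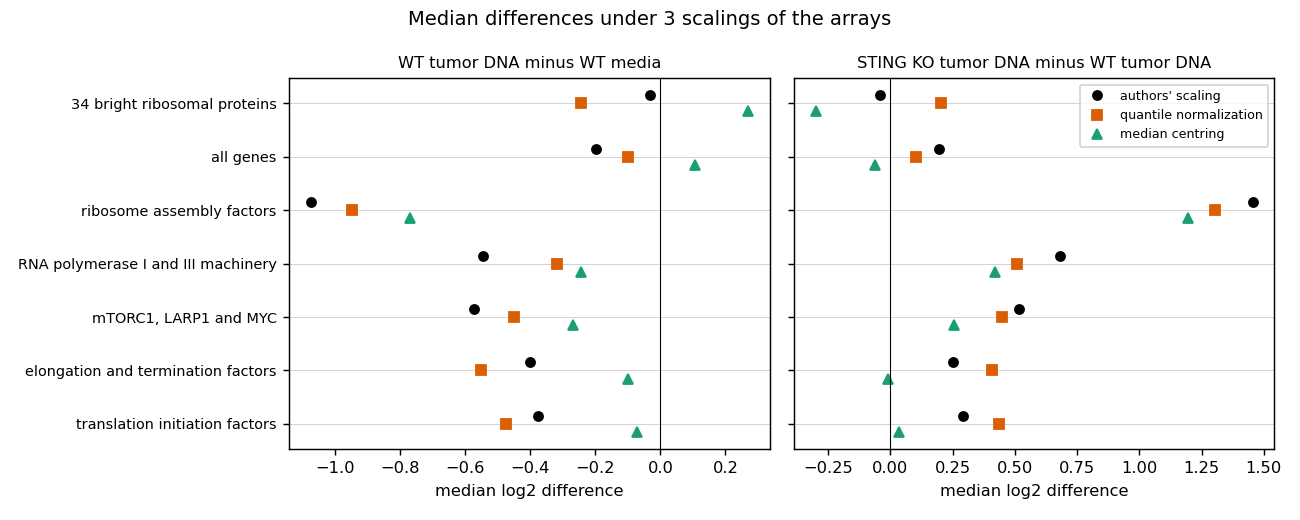
Median log2 difference of the 34 bright ribosomal proteins, of all genes and of 5 gene lists under the authors' scaling (circles), quantile normalization (squares) and median centring (triangles), for WT tumor DNA against media and for STING KO against WT under DNA. The bright ribosomal proteins stand on both sides of 0, and the ribosome assembly factors stay at -1.07 to -0.771 and at 1.2 to 1.46.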

How the data were processed

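The deposited values are linear signal intensities per probe set that the authors made with MAS5, according to the submitters' processing notes. The MAS5 version was not given in the sources used here. The arrays' number limits precision, and no detection calls were used. Of 45101 probe sets, 64 controls were removed. Signals were analysed as log2(signal + 16), which understates changes of low signals. Probe sets with a mean above the 40th percentile (5.67) were kept, the brightest per gene, giving 12586 genes. One linear model per gene over the 9 arrays was estimated in limma 3.58.1 under R 4.3.3 (lmFit, eBayes with an intensity trend), with 2-sided p-values adjusted by Benjamini-Hochberg over all genes of a comparison and calls below 0.05. The fit was tested on simulated data. Members and lists were chosen with earlier results of these data known. Genes named were the called members (up to 8 per direction), preset subunits and paralogs, the 3 called genes of smallest adjusted p per list and preset regulators. Genes and probe sets outside this rule, such as Rps29, Rpl38, Rpl41, Rps9 and Rpl37a, were chosen after their values were seen.

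Replicate numbers come from the sample titles. Residuals of arrays with the same number correlated at 0.171 to 0.487 (9 pairs), and those of different numbers at -0.419 to 0.142 (18 pairs), so the numbers were taken to pair the samples. The BioB spike-in differed by number, at 405.8 to 551.8 for number 1 against 114.8 to 188.9 for numbers 2 and 3. Each number holds 1 array of each group, so values within numbers and with the block are given. The main fit held no such block, so its SEs, calls and tests not passed take no account of the pairing.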

Additional observations from a re-analysis of the deposited data

How the results depend on the processing

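For WT tumor DNA against media, 5 members were called lower, 1 higher, with a median of -0.063. The number lower was 18 with quantile normalization, 3 with median centring and 9 each with the mean of probe sets, with the plain-suffix probe set and with the replicate block. Of all genes, 17.5%, 11.5% and 31.6% were lower with quantile normalization, median centring and the block. All-gene shares with the mean of probe sets or the plain-suffix probe set are not given here. The number higher was 9 with median centring, where 16.2% of all genes were higher. The median became -0.245 with quantile normalization, 0.24 with median centring and -0.178 with the mean of probe sets. For STING KO against WT under DNA, 4 were called higher and 1 lower, with a median of 0.01. The number higher was 17 with quantile normalization and 8 with the mean of probe sets or the plain-suffix probe set. With quantile normalization 17% of all genes were higher. The number lower was 8 with median centring, 2 with the replicate block and 0 without the filter, without the intensity trend, with only the 2 groups, with the mean of probe sets and with the plain-suffix probe set. Of all genes, 14.3% were lower with median centring and 13% with the block. Quantile normalization gave a median of 0.203, median centring one of -0.249. With a row for each probe set, chosen after seeing the data, genes with a called probe set numbered 2 higher and 12 lower with DNA and 10 higher and 2 lower in STING KO. Rps20 was at 0.143 (limma adjusted p = 0.428) with the mean of probe sets and at 0.689 (0.107) with the plain-suffix one, and Polr3e at -0.055 (0.931) with the latter.

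Leaving out an array or a number gave 0 to 2 members higher, 0 to 6 lower and medians of -0.092 to -0.019 with DNA in WT, 2 to 4 higher, 0 to 1 lower and medians of -0.066 to 0.078 in STING KO under DNA, and 0 to 1 higher, 0 lower and medians of -0.088 to -0.005 for STING KO with DNA against WT media. Without the arrays numbered 3, 0 members were called with DNA in WT and 2 in STING KO under DNA. Counts of all genes in these fits are not given here. A drop in member calls therefore cannot be told from a drop in calls of all genes with fewer arrays. The bright median by number was -0.05, 0.029 and -0.052 with DNA in WT and 0.049, -0.114 and -0.01 in STING KO under DNA. The cause of these changes was not tested. For STING KO with DNA against WT media, all genes called numbered 21 higher and 33 lower, and 86 and 90 with the replicate block.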
